A study of Mus musculus with 6 samples.

Results

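Transcripts of 10 genes that store, release and retrieve calcium in muscle were measured in mouse skeletal muscle that had received an adeno-associated virus (AAV) for TFEB or for green fluorescent protein. The genes are Ryr1, Jph1, Jph2, Casq1, Casq2, Atp2a1, Atp2a2, Sln, Pln and Pvalb, and their members on the array were taken as the probe sets (groups of short oligonucleotides that read 1 transcript) whose only annotated gene symbol is one of these names. They gave 16 probe sets among the 22626 tested, and 10 genes among 12393. Each gene except Atp2a2, Sln and Pln was read by 1 probe set, Atp2a2 by 4, Pln by 3 and Sln by 2.

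In the TFEB group, 3 wild-type C57BL/6 mice had muscle injected with AAV carrying the murine Tfeb (Tcfeb) coding sequence. In the GFP group, the muscle of 3 other wild-type C57BL/6 mice had the same kind of vector with GFP in its place. The labels give an age of 1 month for all 6 mice, whereas the study's text speaks of adults. The study names a CMV promoter, which is not restricted to muscle fibres, so the vector does not define the cells in which TFEB was made. Each mouse gave 1 array, and which muscle each array came from is not given in the labels.

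Skeletal muscle contracts when calcium leaves the sarcoplasmic reticulum, the internal store of the fibre, and relaxes when calcium is pumped back. An action potential in the T-tubule opens the ryanodine receptor at a junction between the 2 membranes, calsequestrin holds calcium inside the store, SERCA pumps return it, and parvalbumin soaks it up in the cytosol. Fast fibres, slow fibres and heart differ in the forms they use: calsequestrin 1 and SERCA1 are the fast skeletal forms, calsequestrin 2 and SERCA2 the cardiac and slow ones, and the small membrane proteins phospholamban and sarcolipin restrain the pump mainly in heart and slow muscle. Developing skeletal muscle is also known to carry several of the cardiac forms.

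Of the 5 slow or cardiac genes, Sln, Casq2 and Pln rose in TFEB muscle, Jph2 fell, and Atp2a2 passed at 1 of its 4 probe sets. Of the 5 fast or skeletal genes, Jph1 fell and Ryr1, Casq1, Atp2a1 and Pvalb did not pass. Sarcolipin stood highest, 18.2-fold above the GFP group, calsequestrin 2 was 5.33-fold and phospholamban 2.71-fold higher, whereas both junctophilin genes were lower, 1.86-fold for Jph1 and 1.88-fold for Jph2. The limits for a call were an adjusted p under 0.05 (limma, Benjamini-Hochberg over all 22626 probe sets) together with a change of 1.5-fold or more. Of the 16 probe sets, 6 passed with a higher value, where 7.51% of all probe sets did, and 2 passed with a lower value, where 6.11% did. With 1 probe set per gene, the brightest one, 3 of the 10 genes were higher (8.62% of all genes) and 2 were lower (4.9%). The 3 TFEB values did not overlap the 3 GFP values at 12 of the 16 probe sets, but the same held for 49.9% of all probe sets, so that non-overlap alone says little here. The median log2 fold change was 1.44 over the 5 slow or cardiac genes and -0.05 over the 5 fast or skeletal genes, against -0.05 over all 12393 genes. Ryr1, Casq1, Atp2a1 and Pvalb have means at percentile 99.4 or above, where array values are compressed and a small change can be missed. The 2 medians therefore do not show that the fast or skeletal forms were steady.

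**Figure D1:**
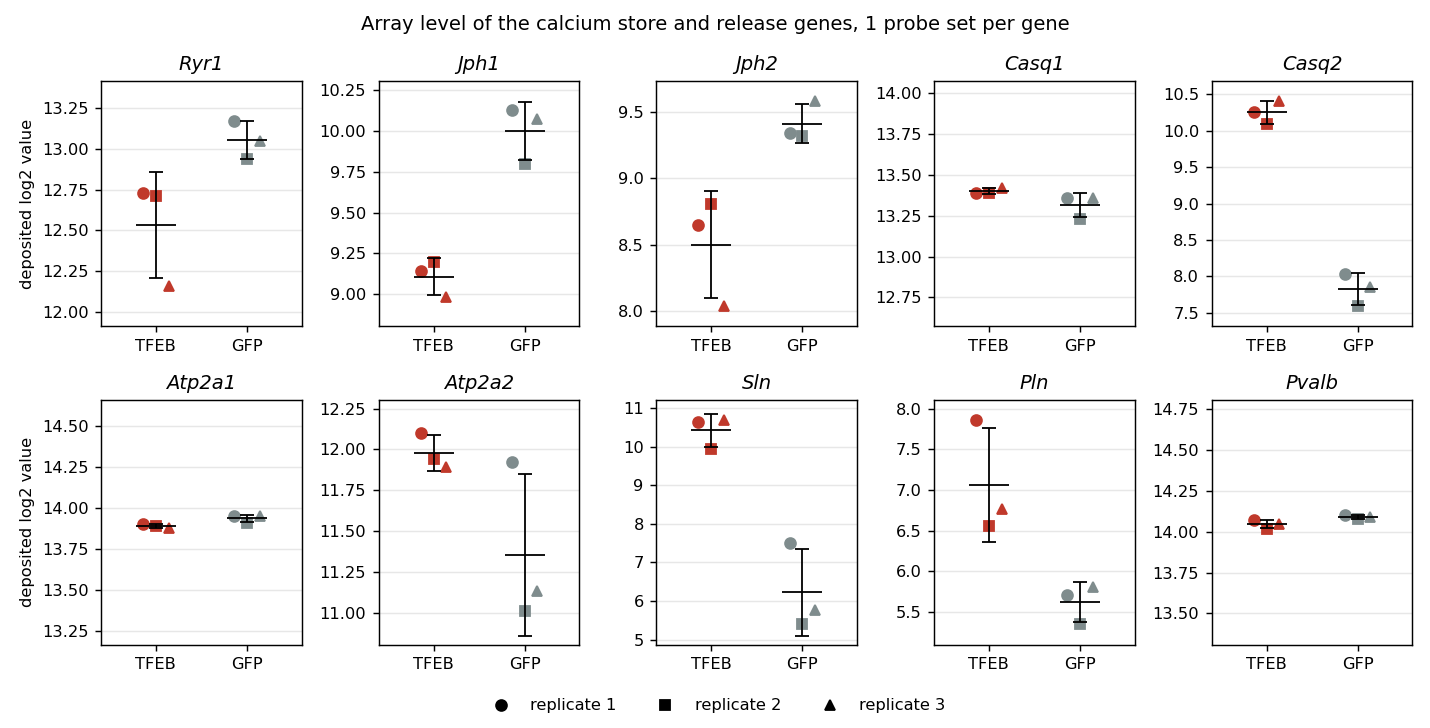
Deposited log2 value of each array for the 10 genes, 1 probe set per gene, with TFEB arrays in red on the left and GFP arrays in grey on the right of each panel. Bars give the mean ± SD (n = 3 each), the symbol gives the replicate, and the vertical axes differ between panels. Sln, Casq2 and Pln lie higher and Jph1 and Jph2 lower in TFEB muscle without overlap, and Casq1, Atp2a1 and Pvalb lie within 0.1 log2 units between the group means.

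The arrays were of skeletal muscle by their markers. Ckm, the muscle creatine kinase gene, averaged 14.2 in TFEB and 14.28 in GFP muscle, and Acta1, the skeletal actin gene, 14.37 and 14.35 in TFEB and GFP muscle, near the highest value on any array (14.37). The 3 TFEB arrays differed from each other by over 2-fold at 45 to 101 probe sets. GFP replicate 2 stood apart, with 725 and 844 probe sets over 2-fold from the other GFP arrays, which differed from each other at 87. The mean of 5 macrophage markers lay 0.90 to 1.57 above the GFP mean (log2) in TFEB arrays, and at 1.37 in GFP replicate 2, against -0.76 and -0.61 in GFP replicates 1 and 3. Of these 5 genes, 1 rose past the threshold, Cd68, and the part of macrophages in the results was not tested. For beta-actin, the 3′ signal was above the 5′ signal by 0.22 to 0.34 in TFEB and by 0.04 to 0.08 in GFP arrays. For Gapdh, the same difference was -0.04 to 0.05 in TFEB and -0.07 to -0.06 in GFP arrays. This sign of RNA quality thus differed by group at beta-actin but only slightly at Gapdh, and its part in the results was not tested. The only probe set of Tfeb read 7.92, 7.68 and 7.61 in TFEB and 8.49, 8.47 and 8.58 in GFP muscle, so it did not show the delivered gene. Whether its probes lie within the vector's coding sequence was not tested.

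Ryr1 encodes the ryanodine receptor of skeletal muscle, the channel through which calcium leaves the store. Its probe set read 12.73, 12.71 and 12.16 in TFEB and 13.17, 12.94 and 13.05 in GFP muscle (log2 values). All TFEB values lay under the GFP values, and TFEB replicate 3 lay furthest from them. The log2 fold change was -0.52 ± 0.16 (SE, limma adjusted p = 0.0491), which missed the 1.5-fold limit. With arrays shifted to equal medians it was -0.59 and passed (adjusted p = 0.0355), and without TFEB replicate 3 it was -0.34.

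The junctophilins tether the T-tubule to the store so that the voltage sensor faces the ryanodine receptor. Jph1, the form of skeletal muscle, read 9.14, 9.2 and 8.98 in TFEB and 10.13, 9.8 and 10.07 in GFP muscle. The groups stood clearly apart, and Jph1 changed by -0.90 ± 0.11 on the log2 scale (SE, limma adjusted p = 0.00234). Jph2, the only form of the heart and also present in skeletal muscle, read 8.65, 8.81 and 8.04 in TFEB and 9.34, 9.32 and 9.58 in GFP muscle. Its TFEB values spread more widely, with replicate 3 again the lowest, and the change was -0.91 ± 0.20 (log2, SE, limma adjusted p = 0.0156). Jph2 missed the threshold without GFP replicate 3 (-0.83, adjusted p = 0.059) and fell by 0.68 without TFEB replicate 3. Jph1 passed whichever array was left out (-0.996 to -0.83). The fitted changes of both tethers were close in size and of the same sign.

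Calsequestrins are the acidic proteins that bind calcium inside the store. Casq1, the main form of fast fibres, read 13.39, 13.39 and 13.42 in TFEB and 13.36, 13.23 and 13.36 in GFP muscle. The groups differed by 0.08 ± 0.07 (SE, limma adjusted p = 0.393), with a 95% interval of -0.08 to 0.25. Casq2, the cardiac and slow form, read 10.26, 10.09 and 10.4 in TFEB and 8.03, 7.6 and 7.86 in GFP muscle. Every TFEB array lay more than 2 log2 units above every GFP array, and Casq2 rose by 2.41 ± 0.13 (SE, limma adjusted p = 0.000331), the smallest p among the 16 probe sets. The rise ran from 2.30 to 2.52 with any array left out. The name of the Casq2 probe set carries the suffix that Affymetrix gives to probes which may match more than 1 transcript, and it is the only probe set of this gene.

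The stretches before the start sites of Casq2 and Casq1 are shown because the pair changed so unequally, and that of Pln because it rose as well. They come from the RefSeq promoter table (GRCm38.p6), which matched 7 of the 10 genes, and hold the 160 bases before the start, on the strand of the gene: Casq2 at chr3:102086255-102086414 (+ strand), Casq1 at chr1:172219896-172220055 (- strand) and Pln at chr10:53337526-53337685 (+ strand). Capitals mark matches to the MEF2 consensus, the site of a family of muscle transcription factors, and to CANNTG, the E-box that myogenic and other helix-loop-helix factors read.
Casq2: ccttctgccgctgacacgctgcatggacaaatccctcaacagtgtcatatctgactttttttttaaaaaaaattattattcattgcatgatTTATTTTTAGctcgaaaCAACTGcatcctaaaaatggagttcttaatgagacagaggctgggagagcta
Casq1: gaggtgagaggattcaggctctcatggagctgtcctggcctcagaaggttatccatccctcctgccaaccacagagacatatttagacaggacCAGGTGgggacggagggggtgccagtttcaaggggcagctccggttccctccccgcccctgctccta
Pln: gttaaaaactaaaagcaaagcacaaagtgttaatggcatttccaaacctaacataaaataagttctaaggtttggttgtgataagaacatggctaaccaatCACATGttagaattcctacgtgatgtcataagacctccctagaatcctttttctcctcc

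In the whole window of the table, 250 bases before to 50 after the start and both strands, Casq2 held 1 match to the MEF2 consensus, beginning at position -69, and Casq1 and Pln held 0. Pvalb and Jph2 have 2 windows each in the table, and Pvalb had 1 match in one of them, at position -180. Such a match stood in 3.19% of the 32851 promoters. An E-box CANNTG was present in 6 of the 7 genes and in 72.3% of all promoters. The E-box core CACGTG, a special case of CANNTG and the core of the sites that TFEB is known to bind, was in 0 of the 7 genes and in 7.15% of all promoters, and the CArG box, which serum response factor reads, was in 0 of 7 and in 1.63% of all. A gene was counted if any of its windows held a match, whereas the shares are per promoter, so the 2 are not the same measure. These matches describe the letters of the windows only. Sln, Atp2a2 and Jph1 had no window in the table, so the counts leave them out.

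The SERCA pumps move calcium from the cytosol back into the store. Atp2a1, which encodes SERCA1 of fast fibres, read 13.9, 13.89 and 13.88 in TFEB and 13.95, 13.91 and 13.95 in GFP muscle. The difference was -0.05 ± 0.06 (SE, limma adjusted p = 0.581, 95% interval -0.19 to 0.10). The means of Atp2a1, Casq1, Pvalb and Ryr1 ranked at percentile 99.4 or above among all probe sets, where array values are compressed and a small change can be missed.

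Atp2a2, which encodes SERCA2 of slow fibres and heart, was read by 4 probe sets with log2 fold changes of 0.53 to 0.86, and 1 of them passed. That one, the second dimmest, read 9.63, 9.61 and 9.74 in TFEB and 9.07, 8.86 and 8.48 in GFP muscle and rose by 0.86 ± 0.15 (SE, limma adjusted p = 0.00687). The brightest read 12.1, 11.94 and 11.89 in TFEB and 11.92, 11.01 and 11.13 in GFP muscle. GFP replicate 1 lay among the TFEB arrays, the groups overlapped, and the change of 0.62 ± 0.23 (SE) had an adjusted p of 0.082 by limma. The same array was the highest of its group at all 4 probe sets. The second brightest read 11.15, 11 and 10.93 in TFEB and 11.11, 9.98 and 10.22 in GFP muscle (0.59 ± 0.28 SE, limma adjusted p = 0.144). The dimmest read 6.57, 6.52 and 6.83 in TFEB and 6.53, 5.89 and 5.89 in GFP muscle (0.53 ± 0.19 SE, limma adjusted p = 0.0738). Without GFP replicate 1, all 4 probe sets passed, with 0.91 for the brightest (adjusted p = 0.00558), 0.93 for the second brightest, 0.99 for the second dimmest and 0.75 for the dimmest.

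Genes of the slow contractile apparatus were high in that array too, as was Sln (1.28 above the GFP mean). The mean of 7 such genes (Myh7, Tnnc1, Tnni1, Tnnt1, Myl2, Myl3 and Tpm3) lay 0.85, 0.22 and 0.34 above the GFP mean in TFEB replicates 1, 2 and 3, and at 0.67, -0.49 and -0.17 in GFP replicates 1, 2 and 3. Of the 7 genes 1 passed the threshold, Tnni1, the slow troponin I gene, which is known in developing muscle too and was higher by 1.51 ± 0.34 (SE, limma adjusted p = 0.0172). The median of the list was 0.54, while Myl3 (-0.27) and Tpm3 (-0.26) were lower in TFEB muscle without passing. GFP replicate 1 thus lay above 2 of the 3 TFEB arrays in these genes, and their part in the levels of Atp2a2 and Sln was not tested. In whole muscle, a change in the share of a fibre type and a change of RNA per fibre cannot be told apart.

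**Figure D2:**
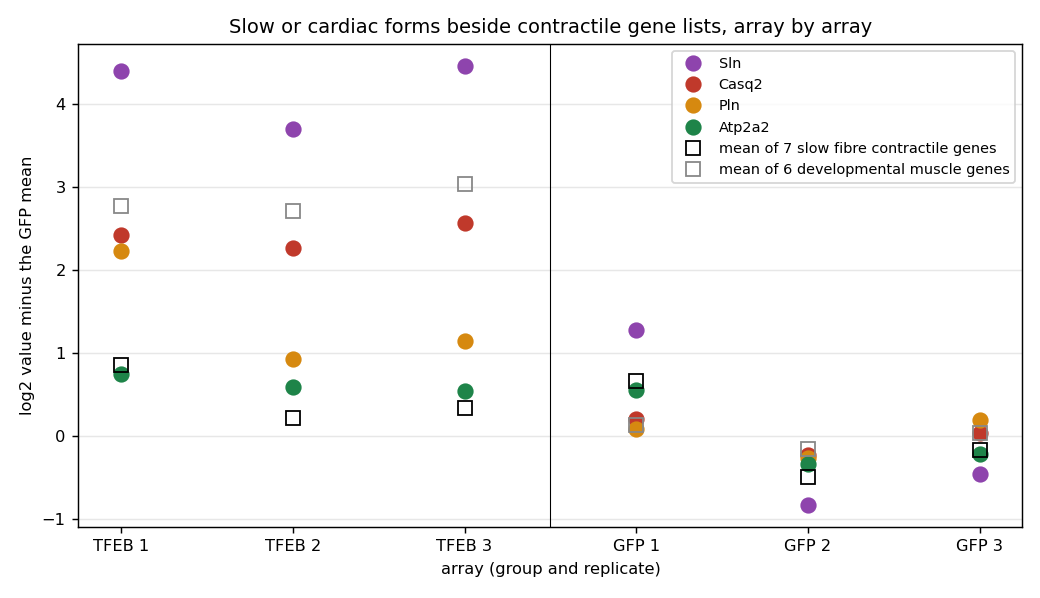
Log2 value minus the GFP mean in each of the 6 arrays, TFEB on the left and GFP on the right of the line, for the brightest probe set of Sln, Casq2, Pln and Atp2a2 (filled circles) and for the mean of the slow fibre and the developmental muscle genes (open squares). Sln, Atp2a2 and the slow fibre genes are raised in GFP replicate 1 (1.28, 0.56 and 0.67), whereas Casq2 (0.20) and the developmental genes (0.13) there are close to the other GFP arrays.

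Sarcolipin and phospholamban are small membrane proteins that bind SERCA pumps and slow them. The brighter Sln probe set read 10.63, 9.93 and 10.69 in TFEB and 7.51, 5.4 and 5.77 in GFP muscle. TFEB arrays exceeded every GFP array by more than 2 log2 units, although GFP replicate 1 lay above its group by a wide margin. Sln rose by 4.19 ± 0.54 (SE, limma adjusted p = 0.00265), or by 4.83 without GFP replicate 1 and 3.77 without GFP replicate 2. The other Sln probe set read 4.01, 3.73 and 3.91 in TFEB and 3.95, 3.56 and 3.78 in GFP muscle, a difference of 0.12 ± 0.12 (SE, limma adjusted p = 0.469). It was dim on all 6 arrays, with a mean at percentile 14.2, so that both probe sets of this gene did not give the same account.

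All 3 Pln probe sets were higher in TFEB muscle, with log2 fold changes of 0.86 to 1.44, and all 3 passed. The brightest read 7.86, 6.56 and 6.77 in TFEB and 5.71, 5.35 and 5.81 in GFP muscle, a rise of 1.44 ± 0.33 (SE, limma adjusted p = 0.0188) that ran from 1.04 without TFEB replicate 1 to 1.69 without TFEB replicate 2. TFEB replicate 1 was the highest array at all 3 probe sets. For the middle one the values were 6.43, 5.34 and 5.77 in TFEB and 4.77, 4.65 and 5 in GFP muscle (1.04 ± 0.26 SE, limma adjusted p = 0.0252), and for the dimmest 5.86, 5.16 and 4.93 in TFEB and 4.24, 4.34 and 4.79 in GFP muscle (0.86 ± 0.26 SE, limma adjusted p = 0.0441). The groups were separate at each of the 3, by little at the dimmest. The dimmest had a mean under 5, and 7 member probe sets passed when such probe sets were left out. The middle one was dim in the GFP group, with a mean of 4.81. The call at the dimmest was lost with each array left out except TFEB replicate 3 (0.59 to 1.03, adjusted p = 0.0533 to 0.122) and with arrays shifted to equal medians (adjusted p = 0.0523). The call at the middle one was lost without TFEB replicate 3 (1.08), GFP replicate 1 (1.02) or GFP replicate 3 (1.14). By the methods' t-test with Benjamini-Hochberg adjustment no Pln probe set passed, and neither did Jph2.

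Pvalb encodes parvalbumin, the soluble calcium buffer of fast fibres. It read 14.07, 14.02 and 14.05 in TFEB and 14.1, 14.08 and 14.09 in GFP muscle, close to the top of the scale. The difference was -0.04 ± 0.06 (SE, limma adjusted p = 0.65, 95% interval -0.19 to 0.11). The 8 fast contractile genes, among them Myh4 and Tnni2, gave a median log2 fold change of -0.08, with 0 past the threshold. They did not all move alike, as Myh1 changed by 0.45 ± 0.09 and Actn3 by -0.27 ± 0.07 (SE, limma adjusted p = 0.0107 and 0.0204). The name of the Myh1 probe set carries a suffix for probes that may match other transcripts. The group means of the 8 genes ran from 13.17 (Myh1, GFP) to 14.26 (Myl1, GFP). At such bright values a small change can be missed in this list too. Under arrays shifted to these fast genes the difference was 0.0124 for Pvalb and 0.00457 for Atp2a1, so neither had a settled direction.

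**Figure D3:**
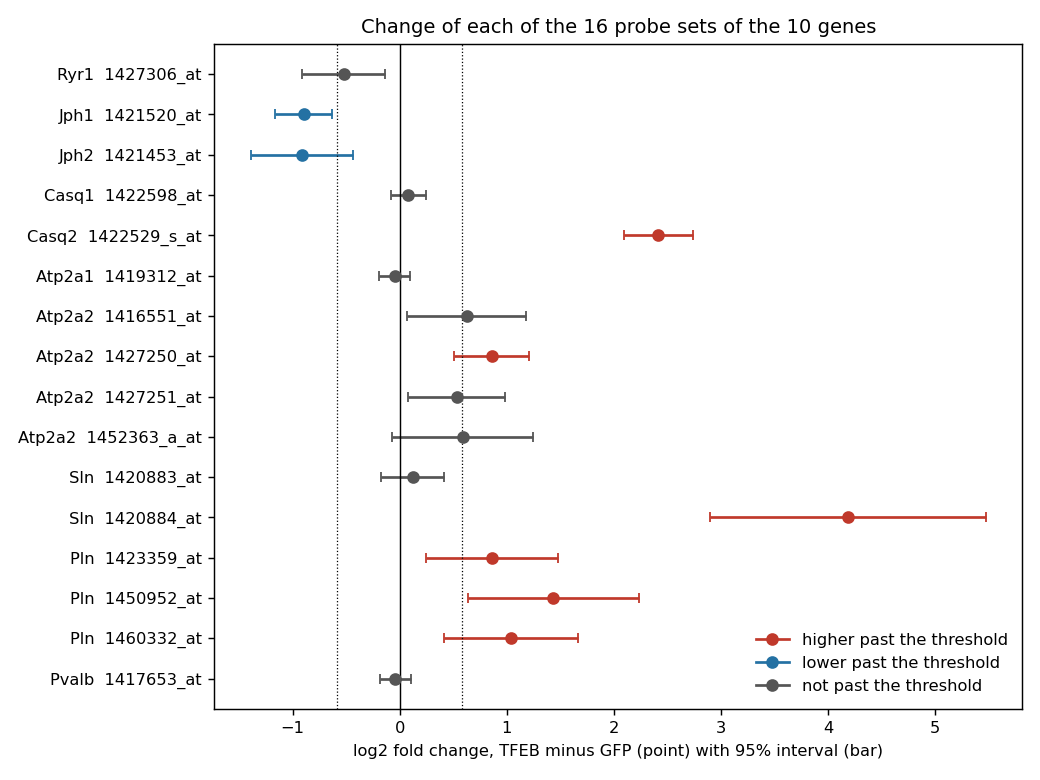
Log2 fold change of TFEB over GFP (point) with its 95% limma interval (bar) for all 16 probe sets, with n = 3 arrays per group, and dotted lines at the 1.5-fold limit. The 6 probe sets that were higher past the threshold are red, the 2 that were lower are blue, and the 8 others are grey.

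Whether the 2 forms of a protein changed unlike each other was tested on the difference between their log2 values within each array, set to 0 at the GFP mean. For Casq2 minus Casq1 it was 2.35, 2.18 and 2.47 in TFEB and 0.16, -0.15 and -0.01 in GFP muscle, a shift of 2.33. For Atp2a2 minus Atp2a1 it was 0.79, 0.64 and 0.59 in TFEB and 0.55, -0.31 and -0.24 in GFP muscle, a shift of 0.67 that shrank to 0.51 without GFP replicate 2 and grew to 0.95 without GFP replicate 1. The GFP array nearest to the TFEB arrays was again replicate 1. For Jph2 minus Jph1 the shift was -0.01, less than the SD of 0.29 in TFEB and 0.18 in GFP muscle. Between the pump inhibitors, Pln minus Sln shifted by -2.75, as Sln rose more, and by -1.04 when all probe sets of a gene were averaged. In the exact two-sided permutation test, the calsequestrin, pump and inhibitor pairs each gave p = 0.1, the smallest that 3 arrays against 3 allow, and the junctophilin pair gave p = 0.9. Adjusted over the 4 pairs these were 0.133 and 0.9, so no pair could pass at this size. Casq1 and Atp2a1 lie where array values are compressed, so these differences do not show that the fast form kept its level.

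**Figure D4:**
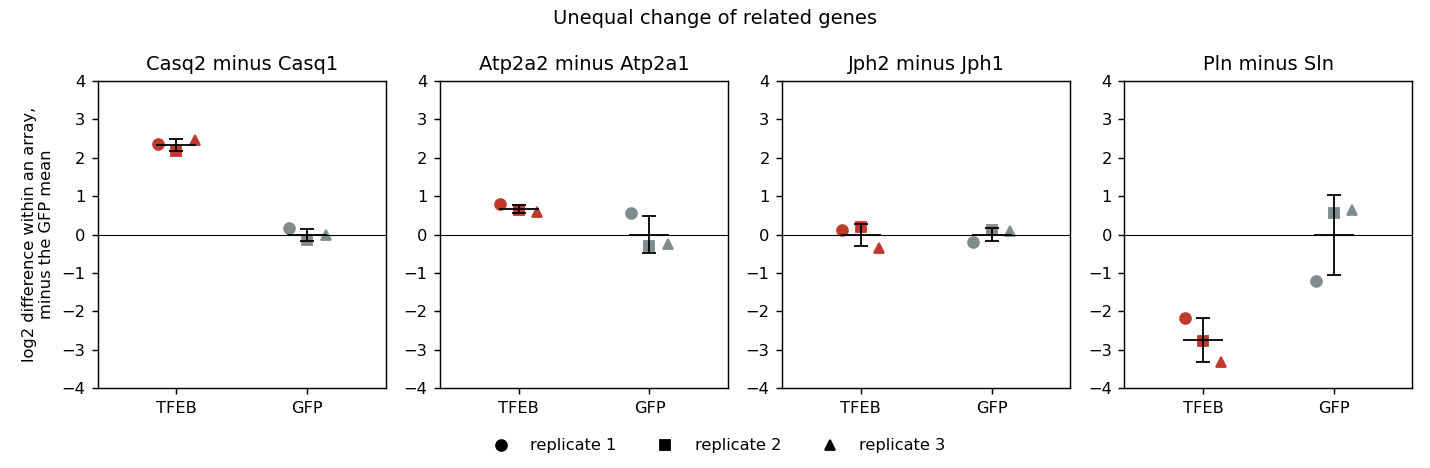
Difference between 2 related genes within an array (log2), minus the GFP mean, for 4 pairs, with TFEB arrays in red on the left and GFP arrays in grey on the right, and mean ± SD (n = 3 each). The calsequestrin pair lies between 2.18 and 2.47 in TFEB muscle, while the junctophilin pair overlaps in both groups.

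Markers of other tissues that carry the cardiac forms were measured beside these changes. Of 7 genes of heart muscle, Myh6, the adult cardiac myosin, was dim, at 3.89 in TFEB and 3.82 in GFP muscle, and Tnni3, cardiac troponin I, was at 4.62 in TFEB and 5.02 in GFP muscle. Myl4 (3.74 ± 0.28 SE), Tnnt2 (3.50 ± 0.23) and Nppa (0.81 ± 0.18) rose, of which Myl4 and Tnnt2 are known in developing skeletal muscle as well. The mean of the 7 heart markers lay 1.08 to 1.44 above the GFP mean in TFEB and -0.11 to 0.08 in GFP arrays. Most of that rise came from Myl4 and Tnnt2, and the median change of the 7 was 0.54. Nppb (0.54), Myl7 (0.43), Myh6 (0.06) and Tnni3 (-0.40) did not pass. Among 5 smooth muscle genes, Acta2 rose by 1.99 ± 0.21 (SE), also a gene of developing muscle, while Myh11 averaged 6.74 in TFEB and 6.51 in GFP muscle and Cnn1 4.96 in TFEB and 5.22 in GFP muscle. The mean of the 5 smooth muscle genes lay at 0.36 to 0.48 in TFEB and -0.31 to 0.34 in GFP arrays. Their median change was 0.18, and only Acta2 passed. All 6 genes of developmental muscle rose, among them the embryonic myosin Myh3 (5.72 ± 0.30 SE), the perinatal myosin Myh8 (4.35 ± 0.13 SE) and Chrng, the fetal subunit of the acetylcholine receptor (1.85 ± 0.14 SE). Their median was 2.14, and their mean lay at 2.71 to 3.03 in TFEB and -0.16 to 0.13 in GFP arrays. Of 5 satellite cell and myoblast genes 2 rose, Myog (3.47 ± 0.18 SE) and Myf5 (0.94 ± 0.14 SE). Pax7 (0.26), Myod1 (0.17) and Cdh15 (0.10) did not pass, and the median change of the 5 genes was 0.26. The part of these cells or fibres in the levels of Sln, Casq2 and Pln was not tested.

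The wider calcium handling machinery was read through a list of 83 further genes, which was written from textbook knowledge. Of these, 57 had a probe set, and 3 were higher and 2 lower past the threshold, that is 5 of 57, and the median change was -0.04 (log2). Among all 12393 genes, 8.62% were higher and 4.9% lower, so neither share of the list was above that of the array. Among the 10 triad genes measured, Sypl2, a protein of the junction, rose by 0.76 ± 0.11 (SE, limma adjusted p = 0.00386), whereas the voltage sensor gene Cacna1s stood at -0.04 ± 0.10 (SE, adjusted p = 0.77). Among the 14 release channel partners, Homer1, a scaffold that binds calcium channels, fell by 1.76 (± 0.15 SE, limma adjusted p = 0.00092), and S100a1, which binds the ryanodine receptor, rose by 0.59 ± 0.09 (SE, limma adjusted p = 0.00466). The other ryanodine receptors, Ryr2 of heart and Ryr3, were dim, at 3.53 and 4.93 in TFEB and 3.58 and 4.95 in GFP muscle. Among the 9 buffers and kinases, Camk2a fell by 1.25 (± 0.20 SE, limma adjusted p = 0.00533) and Camk2d, the main form of heart, rose by 0.60 ± 0.18 (SE, limma adjusted p = 0.0448). No gene passed among the 9 of pump regulation and store lumen, where the median was 0.35, nor among the 9 of store entry and plasma membrane or the 6 of mitochondrial uptake.

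The calls at S100a1 and Camk2d lay close to the limits. S100a1 missed the fold limit without TFEB replicate 3 (0.53), GFP replicate 1 (0.57) or GFP replicate 2 (0.56). It also missed it with equal medians (0.52) and with array weights (0.56). Camk2d kept its call only without TFEB replicate 2 among the left-out arrays. Its call was also lost with equal medians (0.53), quantile normalization repeated (0.58), array weights (0.52) and the methods' t-test (adjusted p = 0.131). The count over the list was 3 without TFEB replicate 3 or without GFP replicate 1, and 8 without GFP replicate 2. Homer1, Camk2a and Sypl2 passed under each of the alternatives run on single probe sets.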

How the data were processed

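Muscle RNA of 6 mice (3 TFEB, 3 GFP) was hybridised to 1 Affymetrix array each. The authors deposited log2 values for every probe set, made with affy and RMA, whose versions are not stated; RMA corrects the background, equalises the arrays' quantiles and summarises the probes. RMA compresses very bright and very dim values, and normalization would hide a change shared by most transcripts. Array medians lay between 6.44 and 6.55. Arrays have no read depth, so precision rests on 3 arrays per group, and signal over background was not tested per probe set.

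Of 22690 probe sets, 64 controls were left out and 22626 tested. GEO's platform annotation gave 20380 of the table's probe sets 1 symbol, 691 several and 1555 no symbol, and all 10 genes were found in the RefSeq table by Entrez identifier. For counts of genes, the probe set of highest mean stood for each. Those of Casq2, Myh1, Myl3, Tnnt2, Acta2 and S100a1 have suffixes for probes that may match other transcripts. Their changes may therefore not be specific to the gene. TFEB was compared with GFP in limma 3.58.1 under R 4.3.3 (lmFit and eBayes, two-sided, Benjamini-Hochberg adjustment), and differences are TFEB minus GFP. The call limits follow those the study's gene list names. The study's statistics name Student's two-tailed test, among others, for its results in general, which is what the methods' t-test means here. Whether it was applied to the arrays is not stated in the sources used. The limma calls were tested on simulated data, and the permutation test on a constructed example.

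All 10 genes were named, and of the other calcium genes up to 3 per role and direction past the threshold. Cacna1s, Ryr2 and Ryr3 were added after their values were seen. Genes, lists and tests were chosen with earlier results of these data known. Alternatives were the replicate block, 3 scalings, leaving out probe sets with a mean under 5, array weights, the methods' t-test, averaging the probe sets of a gene, and leaving out each array.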

Additional observations from a re-analysis of the deposited data

How the results depend on the processing

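Of 216 alternative values of the members' log2 fold changes, 193 were counted as keeping their direction and side of the threshold. That count includes averages over probe sets for genes with 1 probe set, whose fold change averaging cannot alter. It also includes a Pvalb change of 0 with quantile normalization repeated, which has no direction. With arrays shifted to the fast fibre genes, Pvalb was 0.0124 and Atp2a1 0.00457, of opposite sign. Same-numbered arrays deviated from their group means with correlations of 0.42, 0.17 and -0.23, and the labels name nothing that a number shares, so the numbers were not taken to pair the mice. With the replicate block, 8 member probe sets passed (6 higher, 2 lower), among them the brightest of Atp2a2 (adjusted p = 0.0499) but not the dimmest of Pln (adjusted p = 0.0867), and 3052 of all probe sets. By the methods' t-test 4 passed (3 higher, 1 lower), and 2263 of all probe sets. When all probe sets of a gene were averaged, 6 member genes passed (4 higher, 2 lower), against 5 by the brightest probe set. Atp2a2 then passed (0.65, limma adjusted p = 0.0451), and the rise of Sln was 2.15 in place of 4.19. Without 1 array, 5 to 9 member probe sets passed, 4 to 7 higher and 1 to 2 lower, fewest without GFP replicate 3. Over the array 3082 passed, and 2429 to 4222 without 1 array. The other calcium genes past the threshold numbered 3 to 8 without 1 array (1 to 5 higher), 3 with equal medians (1 higher), and 1 higher and 4 lower when all probe sets of a gene were averaged. The Jph2 minus Jph1 shift ran from -0.12 to 0.15 without 1 array, being 0.15 without TFEB replicate 3, 0.04 without GFP replicate 2 and 0.03 without GFP replicate 3. The causes were not tested. Equal medians moved the median of all probe sets to -0.13, from -0.06 as deposited.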
